A study of Drosophila melanogaster with 9 samples.

Results

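The respiratory chain and ATP synthase genes were taken from the array by name. They were the probe sets with 1 gene symbol that begins with ND- (complex I), Sdh (complex II), UQCR- (complex III), COX (complex IV) or ATPsyn (complex V, the ATP synthase), together with blw, which encodes the alpha subunit of the ATP synthase. This gave 68 of the 10844 genes with 1 symbol, of which 31 belonged to complex I, 7 to complex II, 4 to complex III, 11 to complex IV and 15 to complex V. Among them 17 had a name that ends in L, or in L and a number, and are called L paralogs below. Another 50 were general forms, and Sdhaf3 is an assembly factor by name. Where a gene had 2 probe sets (ATPsynC and ND-MNLL), the one with the higher mean over the 9 arrays stood for the gene. The array held no probe set of its own for 24 of the 92 genes with such names, which were not analysed here.

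Complexes I and II take electrons from NADH and from succinate, complex III passes them on to cytochrome c, and complex IV hands them to oxygen. Complexes I, III and IV pump protons across the inner mitochondrial membrane, and the ATP synthase uses the returning protons to make ATP. In Drosophila many subunits are encoded by a broadly expressed gene and by a paralog expressed mainly in the testis, where the mitochondria of each spermatid fuse into a nebenkern and later elongate along the sperm tail. With testes as the only tissue on these arrays, the testis bias of the L paralogs could not be checked here.

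Hand-dissected testes of Drosophila melanogaster males were profiled within a day of eclosion, from flies kept at 25 °C, with 2 µg of total RNA per array and 3 arrays per genotype. The arrays labelled comr carry comr[z1340] cn[1] bw[1] as their genotype, while their source name and description give aly[5], so the labels do not settle which gene was mutant, and the group is called labelled comr below. The can arrays came from w ; can[3] red[1] e[1] males, and the control arrays from red[1] e[1] males with normal testes. The proteins of comr and aly belong to the testis meiotic arrest complex, and can encodes a testis form of a general transcription factor subunit. Mutants of this class stop as spermatocytes before the meiotic divisions. The marker alleles cn[1] and bw[1] and the mutation cannot be told apart in the labelled comr arrays, nor can w and can[3] in the can arrays. The genotype given for the labelled comr arrays does not list red[1] and e[1], which the control and can males carry. A difference at these alleles cannot be told apart from the mutation either. The labels do not say that replicates were dissected separately, and the p-values therefore reflect the spread of these arrays alone, which may be technical.

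Across all tested probe sets the arrays of a genotype correlated at 0.972 to 0.987. The highest signal of 23 control probe sets without a spiked target was 20.3, which is called the floor below, and on average 57.2% of probe sets in the labelled comr arrays, 62.8% in can and 59.3% in control lay above it. The summed signal of 8 spermatid genes was 2767.3 to 3167.4 in labelled comr, 3291.3 to 3522.0 in can and 15058 to 15702 in control, with 6 of the 8 at or under the floor on every labelled comr array. That of 7 spermatocyte genes was 4355.5 to 4383.3 in labelled comr, 2478.0 to 2721.4 in can and 740.0 to 802.3 in control. The 7 include aly and can, which the labels of the mutants name, so this sum is not independent of the genes in the labels. Transcripts of aly gave 526.9 to 558.8 in labelled comr and 79.8 to 89.6 in control, and those of comr reached 35.7 in labelled comr and 23.8 in control. Transcripts of the can gene gave 27.1 to 45.4 in the can arrays and 25.3 to 41.9 in control, which overlap, with a change that turned to -1.05 when each array was centred on 24 ribosomal protein probe sets (ribosomal protein centring). The change of comr against control was 0.58 in labelled comr and 1.16 in can, or -0.070 in can with ribosomal protein centring. Against the can arrays, comr was lower on every labelled comr array (-0.58), while aly was higher by 1.55 and can by 1.74. Whether either mutation alters the level of its own transcript was not tested, so the transcript levels do not settle the labels. RNA integrity was read from GAPDH, whose 3′ probe set over its 5′ probe set gave 5.27 to 6.47 in the labelled comr arrays, 4.48 to 7.02 in can and 2.28 to 2.87 in control. The same ratio of eIF4A was 5.77 to 7.41 in labelled comr, 3.29 to 4.26 in can and 4.99 to 5.55 in control, and that of actin 2.24 to 2.52 in labelled comr, 2.41 to 2.87 in can and 2.51 to 2.68 in control, so the 3 ratios did not order the groups alike. Summed signals of 8 muscle genes were 1230.6 to 1418.8 in labelled comr, 1124.8 to 1231.5 in can and 934.0 to 1068.2 in control. The 8 did not move together, with 6 changes above 0 and 2 below in each mutant. Those below 0 in labelled comr were sls (-1.20, at or under the floor on all its arrays) and Mp20 (-0.90). Summed signals of 5 haemocyte genes were 522.9 to 598.0 in labelled comr, 317.8 to 385.4 in can and 140.6 to 250.9 in control. Of these, Sr-CI and NimC1 lay at or under the floor on all arrays, and Hml on all control arrays. The sums of 6 cyst and hub cell genes were 200.7 to 212.4 in labelled comr, 245.2 to 253.3 in can and 188.3 to 203.2 in control, with tj and upd1 under the floor on all arrays. The sums of 11 accessory gland genes varied within each group, at 47.3 to 1729.4 in labelled comr, 111.2 to 3589.2 in can and 608.4 to 4111.7 in control. Those of 4 fat body genes were 90.0 to 126.4 in labelled comr, 158.0 to 204.4 in can and 147.1 to 262.9 in control. The part of these differences in the results below was not tested.

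The L paralogs were compared with control first. Signals are intensities on a linear scale, and a change is the difference between group means of log2(signal + 16), as mutant minus control. A gene rose or fell where limma, fitted over 9775 probe sets, gave a Benjamini-Hochberg adjusted p under 0.05 and a change of at least 2-fold. By this rule 12 of the 17 L paralogs fell in the labelled comr arrays and 2 rose, beside 16.7% of all tested probe sets called lower and 28.9% called higher. In can 14 fell and 1 rose, beside 13.1% of all tested probe sets called lower and 20.7% called higher. The median change of the 17 was -2.89 in the labelled comr arrays and -1.42 in can. With 7 genes at their lower bound, which is taken without the offset of 16, the labelled comr median was -3.36. That value mixes 2 scales and is not the more cautious of the 2. Over all probe sets the median was 0.35 in labelled comr and 0.29 in can. The L paralogs that fell did so with adjusted p of at most 1.61e-10 in the labelled comr arrays and at most 3.47e-06 in can. Both comparisons use the same 3 control arrays and are therefore not independent of each other. In whole testes fewer cells of a type and less RNA per cell cannot be told apart.

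**Figure D1:**
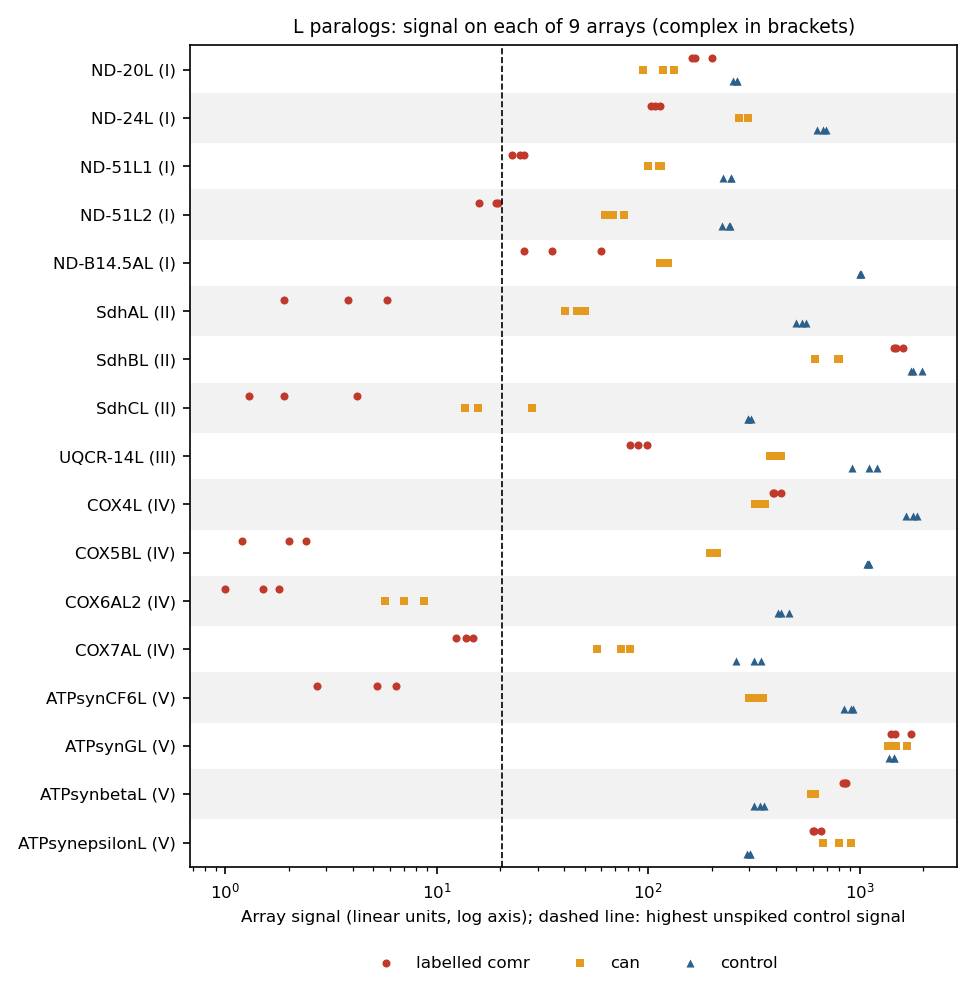
Array signal (linear units on a log axis) of the 17 L paralogs on each of the 9 arrays, with circles for the 3 labelled comr arrays, squares for the 3 can arrays and triangles for the 3 control arrays; brackets give the complex and the dashed line marks the floor of 20.3. All control points lie above the floor, while 7 L paralogs have every labelled comr array at or under it and 1, COX6AL2, every can array.

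Complex I, the NADH dehydrogenase, had 5 L paralogs, of which 4 fell in the labelled comr arrays and 5 in can. ND-24L, a paralog of an iron-sulfur subunit of the NADH-oxidising arm, gave 103.5, 113.2 and 107.5 in the labelled comr arrays, 267.9, 297.8 and 297.6 in can, and 629.3, 671.6 and 695.3 in control. The 3 groups did not overlap, and the changes were -2.46 (SE 0.078) in labelled comr and -1.17 (SE 0.078) in can. ND-51L1 and ND-51L2 are both paralogs of ND-51, the subunit that binds NADH. ND-51L1 gave 22.7, 24.8 and 25.9 in the labelled comr arrays, just above the floor, 115.4, 112.3 and 99.7 in can, and 246.6, 227.0 and 247.3 in control. Its change was -2.66 in labelled comr and -1.04 in can, or -0.98 in can and short of 2-fold without can replicate 3. ND-51L2 gave 19.4, 15.9 and 19.0 in the labelled comr arrays, 76.5, 68.1 and 62.4 in can, and 242.9, 241.7 and 223.2 in control. All labelled comr arrays lay under the floor for it, so it was at least 11.6-fold lower there, and its change in can was -1.57. A bound of this kind is the brighter group's geometric mean over the floor and holds for the arrays as scaled by the authors. ND-B14.5AL, a paralog of a small accessory subunit, gave 34.9, 25.9 and 59.7 in the labelled comr arrays, 113.1, 124.3 and 121.9 in can, and 1009.1, 1007.5 and 1005.0 in control. Its changes, -4.23 (SE 0.17) in labelled comr and -2.91 (SE 0.17) in can, were the largest of this complex on that scale in both mutants. ND-20L, a paralog of a core iron-sulfur subunit, gave 200.7, 166.5 and 160.4 in the labelled comr arrays, 94.0, 131.7 and 117.5 in can, and 251.9, 264.0 and 262.3 in control. It lay below control on every mutant array, but the change in the labelled comr arrays was -0.53 and short of 2-fold, and that in can was -1.09, or -0.97 and short of 2-fold without can replicate 1.

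Complex II, succinate dehydrogenase, is shared with the citric acid cycle, and all 3 of its L paralogs fell in can and 2 of them in the labelled comr arrays. SdhAL, a paralog of the flavoprotein that oxidises succinate, gave 5.8, 3.8 and 1.9 in the labelled comr arrays, 46.3, 40.4 and 50.1 in can, and 534.1, 497.6 and 555.8 in control. It was at least 26.04-fold lower in the labelled comr arrays and fell by 3.15 on the log2 scale in can. SdhCL, a paralog of a membrane anchor, gave 4.2, 1.3 and 1.9 in the labelled comr arrays, 28.2, 15.7 and 13.6 in can, and 295.3, 305.7 and 296.6 in control. That is at least 14.7-fold lower in the labelled comr arrays, and in can, where 1 of the 3 arrays was above the floor, the change was -3.19 (SE 0.15). SdhBL, a paralog of the iron-sulfur subunit, gave 1454.1, 1480.8 and 1610.1 in the labelled comr arrays, 611.8, 789.1 and 794.8 in can, and 1785.4, 1974.7 and 1743.2 in control. Every mutant array lay below every control array, with a change of -0.27 (SE 0.098, adjusted p = 0.0224, short of 2-fold) in the labelled comr arrays and of -1.31 (SE 0.098, adjusted p = 1.13e-07) in can.

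Complex III had 1 L paralog on the array. UQCR-14L, a paralog of a small subunit of the cytochrome bc1 complex, gave 81.7, 89.8 and 98.8 in the labelled comr arrays, 377.3, 426.4 and 409.7 in can, and 917.2, 1213.6 and 1101.3 in control. It fell in steps that did not overlap, with changes of -3.36 (SE 0.11) in the labelled comr arrays and -1.37 (SE 0.11) in can.

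All 4 L paralogs of complex IV, cytochrome c oxidase, fell in both mutants. COX5BL, a paralog of a zinc-binding subunit, gave 2.4, 2.0 and 1.2 in the labelled comr arrays, 205.7, 196.9 and 211.7 in can, and 1097.5, 1087.9 and 1104.7 in control. It was at least 54.0-fold lower in the labelled comr arrays, the highest such bound among the members, and fell by 2.33 on the log2 scale in can. COX6AL2, a paralog of the small subunit encoded by levy, gave 1.8, 1.0 and 1.5 in the labelled comr arrays, 5.7, 7.0 and 8.7 in can, and 408.9, 426.5 and 462.3 in control. It was the only L paralog at or under the floor on all arrays of both mutants and was at least 21.3-fold lower in each. COX7AL, a paralog of a small membrane subunit, gave 14.9, 12.3 and 13.7 in the labelled comr arrays, 57.2, 74.5 and 82.0 in can, and 317.1, 339.8 and 261.1 in control. It was at least 14.98-fold lower in the labelled comr arrays and had a change of -1.89 in can. COX4L, a paralog of a large nuclear-encoded subunit, kept clear signal in both mutants, with 392.9, 387.9 and 424.4 in the labelled comr arrays, 355.9, 331.2 and 320.2 in can, and 1786.7, 1648.7 and 1860.1 in control. Its changes were -2.09 (SE 0.074) in labelled comr and -2.34 (SE 0.074) in can.

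The 4 L paralogs of the ATP synthase did not move together. ATPsynCF6L, a paralog of coupling factor 6 in the peripheral stalk, gave 6.4, 5.2 and 2.7 in the labelled comr arrays, 324.6, 301.1 and 347.5 in can, and 905.4, 925.8 and 843.1 in control. It was at least 43.9-fold lower in the labelled comr arrays and fell by 1.42 on the log2 scale in can. ATPsynbetaL, a paralog of the catalytic beta subunit, gave 832.4, 850.6 and 861.8 in the labelled comr arrays, 616.1, 586.1 and 597.7 in can, and 315.8, 338.8 and 352.9 in control. It rose by 1.30 (SE 0.066, limma adjusted p = 1.97e-09) in the labelled comr arrays, and its change of 0.81 in can was short of 2-fold. ATPsynepsilonL, a paralog of the small central stalk subunit encoded by sun, gave 607.0, 600.1 and 659.3 in the labelled comr arrays, 907.2, 798.6 and 667.6 in can, and 302.3, 293.4 and 302.5 in control. It rose by 1.02 in labelled comr and 1.34 in can, the change in labelled comr being 0.97 and short of 2-fold without labelled comr replicate 3. Neither gene was called under ribosomal protein centring, with changes of 0.29 for ATPsynbetaL in the labelled comr arrays, and of 0.0069 in the labelled comr arrays and 0.12 in can for ATPsynepsilonL. ATPsynGL, a paralog of a membrane subunit, gave 1404.2, 1468.1 and 1756.8 in the labelled comr arrays, 1668.8, 1479.0 and 1368.5 in can, and 1380.4, 1447.0 and 1449.1 in control. The 3 groups overlapped, with changes of 0.11 in labelled comr and 0.073 in can, and it was the only L paralog called in neither mutant. With ribosomal protein centring its change in can was -1.16 and called.

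**Figure D2:**
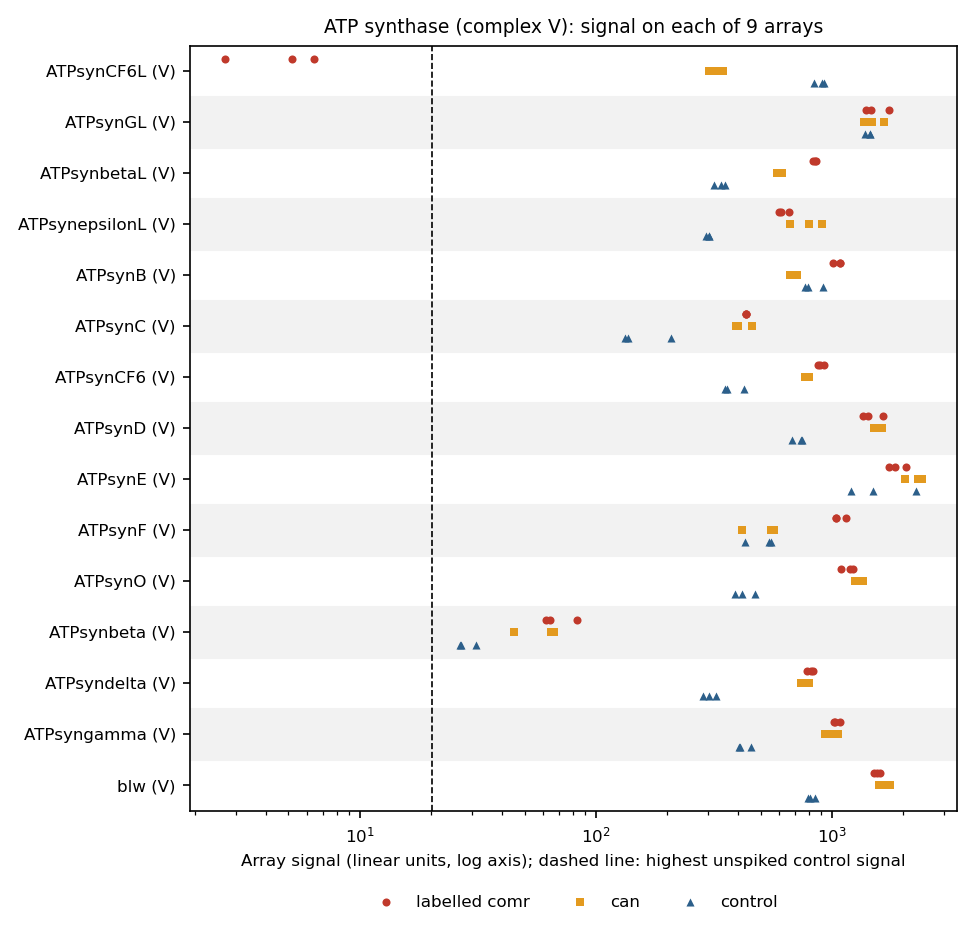
Array signal (linear units on a log axis) of the 15 ATP synthase genes on each of the 9 arrays, the 4 L paralogs above and the 11 general forms below, with circles for labelled comr arrays, squares for can and triangles for control; the dashed line marks the floor. ATPsynCF6L is under the floor on every labelled comr array, while ATPsynbetaL and ATPsynepsilonL lie above control on every mutant array.

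The labelled comr arrays were then compared with can, to ask whether the 2 mutants differed in the same genes. Here 9 of the 17 L paralogs were lower in the labelled comr arrays and 1 was higher, beside 10.3% of all tested probe sets called lower and 4.54% called higher. The median was -1.29 (-1.16 with 5 genes at their bound, taken without the offset), against -0.0059 over all probe sets. Of the 12 L paralogs that fell in both mutants, the 9 called ones were above the floor on every can array and lower on every labelled comr array than on every can array, while COX4L had a change of 0.25. ATPsynCF6L was at least 15.95-fold lower in the labelled comr arrays than in can, and COX5BL at least 10.1-fold lower. UQCR-14L, with a change of -1.99 (SE 0.11), ND-51L1, with -1.63 (SE 0.097), ND-B14.5AL, with -1.32 (SE 0.17), and ND-24L, with -1.29 (SE 0.078), were above the floor on all arrays of both mutants. COX7AL was at least 3.47-fold, ND-51L2 at least 3.39-fold and SdhAL at least 2.24-fold lower. SdhCL and COX6AL2 were not called. All labelled comr arrays and 2 of the 3 can arrays of SdhCL, and all arrays of both mutants for COX6AL2, lay under the floor, where signals have no order. SdhBL was the only L paralog called higher in the labelled comr arrays than in can, by 1.04 (SE 0.098, adjusted p = 2.49e-06), and the change was 1.00 and short of 2-fold without labelled comr replicate 3 and 0.92 without can replicate 1. ND-20L had the same direction at 0.56, short of 2-fold.

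With an offset of 64 in place of 16, which damps differences between dim signals, 4 of the 17 were called lower in the labelled comr arrays than in can. ND-51L1, ND-51L2, ND-B14.5AL, SdhAL and COX7AL were those no longer called, at -0.97, -0.69, -0.83, -0.69 and -0.80, and SdhBL, at 1.00, was no longer called higher.

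Of the 50 general forms, 14 rose and 1 fell in the labelled comr arrays, and 12 rose and 1 fell in can, with the arrays as scaled by the authors. Centred on ribosomal protein genes, 0 rose in either mutant, while 7 fell in labelled comr and 13 in can. As deposited the ribosomal protein genes were themselves higher on average in both mutants, so this centring lowers every change against control. It moved the median of all probe sets from 0.35 to -0.66 in labelled comr and from 0.29 to -0.94 in can. At an unadjusted limma p under 0.05, 9 general forms were still higher in labelled comr and 1 in can. In labelled comr ND-51, SdhC, COX5B, COX8, ATPsynCF6, ATPsynO, ATPsynC and ATPsyndelta also passed the adjusted threshold and were only short of 2-fold. The same held for the 1 in can, ATPsynO. COX5B had 0.68 in labelled comr (limma adjusted p = 4.48e-06) and ATPsynO 0.35 in can (adjusted p = 0.000844). The 14% in labelled comr and 26% in can that fell under this centring lay below the share of all tested probe sets, of which 39.8% in labelled comr and 47.2% in can were then called lower (and 5.81% in labelled comr and 1.26% in can higher). The share that rose was 28% in labelled comr, beside 28.9% of all tested probe sets, and 24% in can, beside 20.7%, which is near that of all probe sets. The share that fell was 2% in each mutant, under the 16.7% of all tested probe sets in labelled comr and the 13.1% in can. Their median change was 0.59 in labelled comr and 0.75 in can, which lay above the median of all probe sets by 0.24 in labelled comr and 0.46 in can, and with ribosomal protein centring it was -0.42 in labelled comr and -0.48 in can. The size of this gap depended on the filter. With the lowest 50% left out, the median of all probe sets was 0.56 in labelled comr and 0.43 in can. With no filter it was 0.033 in labelled comr and 0.073 in can. At any fold, 39 general forms were higher and 6 lower by adjusted p in the labelled comr arrays, where 50.5% and 28.8% of all tested probe sets were so called. In can 38 were higher and 5 lower, where 47.2% and 23.9% of all tested probe sets were. The rise was called in both mutants for 9 genes, ND-51, COX5B, COX8 and 6 ATP synthase subunits, and in neither mutant were 32 called. The share of all probe sets called in both mutants was not computed. With the same control arrays in both comparisons, how unusual these joint counts are was not tested.

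**Figure D3:**
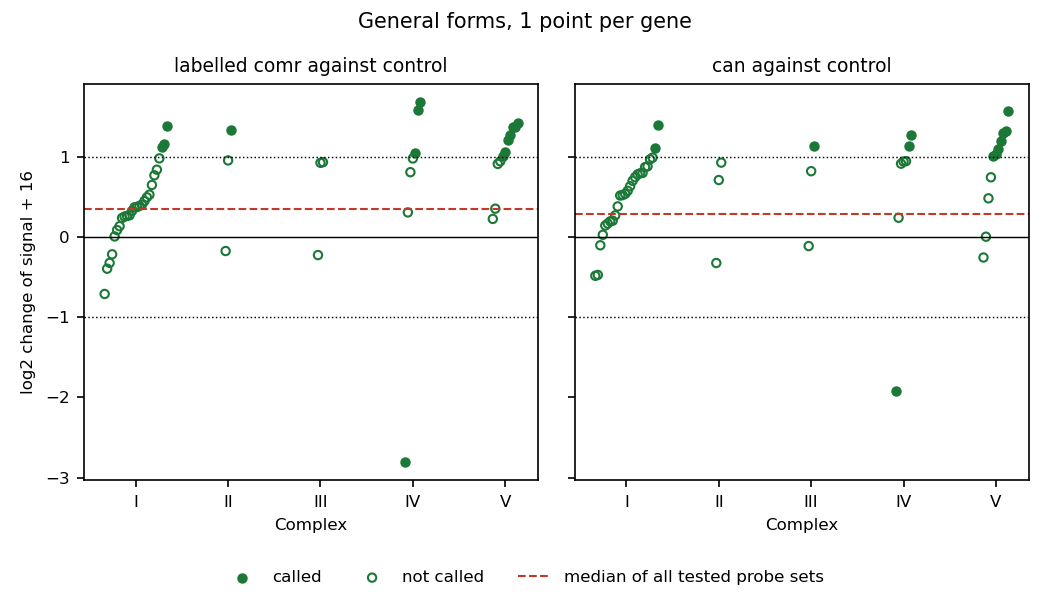
Change of log2(signal + 16) against control for each of the 50 general forms, by complex, in the labelled comr arrays (left) and in can (right); filled points were called, open points were not, dotted lines mark 2-fold and the dashed line is the median of all tested probe sets. Complex V lies highest with 7 of 11 called higher in each mutant (63.6%, beside 28.9% of all tested probe sets in labelled comr and 20.7% in can). COX7C is the single called point below 0, and with ribosomal protein centring no general form was called higher.

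As deposited, 7 of 11 ATP synthase general forms (63.6%) rose in each mutant, beside 28.9% of all tested probe sets in labelled comr and 20.7% in can. Their median was 1.06 in labelled comr and 1.03 in can, which ribosomal protein centring moved to 0.056 in labelled comr and -0.20 in can. ATPsynO, the stalk protein that confers oligomycin sensitivity, gave 1098.0, 1226.5 and 1195.9 in the labelled comr arrays, 1302.7, 1356.9 and 1257.5 in can, and 416.6, 389.2 and 474.5 in control. Every mutant array was above every control array, and the changes were 1.43 in labelled comr (SE 0.080, limma adjusted p = 5.02e-09) and 1.58 in can (SE 0.080, adjusted p = 3.96e-09). ATPsyndelta, of the central stalk, gave 816.0, 785.9 and 836.4 in the labelled comr arrays, 801.2, 778.8 and 738.5 in can, and 284.0, 301.7 and 324.6 in control, with changes of 1.38 in labelled comr and 1.31 in can. ATPsyngamma, the rotor shaft, had changes of 1.28 in labelled comr and 1.20 in can. ATPsynCF6, the general form of ATPsynCF6L, gave 872.6, 887.9 and 930.9 in the labelled comr arrays, 802.2, 793.9 and 768.2 in can, and 351.9, 358.6 and 423.5 in control. It rose by 1.22 in labelled comr and 1.03 in can, and the rise in can was 0.99 without control replicate 1 and just short of 2-fold without control replicate 2. ATPsynD, of the peripheral stalk, rose by 1.01 in labelled comr and 1.10 in can, the change in the labelled comr arrays being 0.93 without labelled comr replicate 3 and 0.97 without control replicate 1. The alpha subunit gene blw had a change of 0.92 in labelled comr and rose by 1.02 in can, but it fell short of 2-fold without can replicate 3 (0.98) or without control replicate 1. ATPsynbeta, the general catalytic subunit, gave 83.1, 64.1 and 61.8 in the labelled comr arrays, 66.4, 65.0 and 45.1 in can, and 26.9, 31.0 and 26.6 in control, all above the floor, and its changes of 0.95 in labelled comr and 0.75 in can were short of 2-fold.

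For ATPsynC, the proton-carrying ring subunit, the 2 probe sets disagreed. The brighter gave 431.6, 434.7 and 435.6 in the labelled comr arrays, 461.7, 401.9 and 394.6 in can, and 133.7, 136.7 and 209.5 in control, and rose by 1.38 in labelled comr and 1.33 in can. The dimmer gave 43.0, 17.5 and 33.1 in the labelled comr arrays, 30.2, 35.3 and 22.2 in can, and 42.3, 43.2 and 46.1 in control, with changes of -0.38 in labelled comr and -0.41 in can that were not called. ATPsynF, a membrane subunit, differed between the mutants, at 1046.9, 1039.8 and 1144.8 in the labelled comr arrays, 568.8, 417.3 and 554.2 in can, and 555.5, 542.0 and 430.3 in control. The can and control arrays overlapped, while every labelled comr array stood above both. It rose by 1.06 in labelled comr against control (0.95 without control replicate 3) and was 1.06 higher in the labelled comr arrays than in can (SE 0.12, limma adjusted p = 1.59e-05; 0.92 and short of 2-fold without can replicate 2). That was the only call among the 50 general forms between the mutants, and the median change over the 50 was -0.071. ATPsynE gave 1742.8, 1850.7 and 2065.6 in the labelled comr arrays, 2416.6, 2313.0 and 2042.6 in can, and 2273.1, 1207.4 and 1498.8 in control, and the groups overlapped, with control replicate 1 far above the other controls.

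In complex IV 3 of 7 general forms rose in the labelled comr arrays (42.9%, beside 28.9% of all tested probe sets) and 2 in can (28.6%, beside 20.7%). Their median was 0.98 in labelled comr and 0.95 in can, and it became -0.025 in labelled comr and -0.28 in can with ribosomal protein centring. COX5B, the general form of COX5BL, gave 1178.5, 1170.3 and 1220.5 in the labelled comr arrays, 801.8, 791.6 and 839.2 in can, and 350.1, 355.2 and 368.8 in control. It rose by 1.69 in labelled comr (SE 0.061, limma adjusted p = 8.06e-11) and 1.14 in can (SE 0.061, adjusted p = 6.17e-09), and its change in labelled comr was the largest rise among the members. COX8, a small membrane subunit, rose by 1.59 in labelled comr and 1.28 in can, with 984.8, 924.1 and 1106.7 in the labelled comr arrays, 823.0, 846.8 and 756.6 in can, and 284.3, 358.6 and 330.5 in control. COX7B rose by 1.06 in the labelled comr arrays, or 0.99 and short of 2-fold without labelled comr replicate 3, and had 0.95 in can. COX4 had a change of 0.81 in labelled comr and 0.92 in can, COX7A of 0.98 in labelled comr and 0.95 in can, and COX5A of 0.31 in labelled comr and 0.24 in can, all short of 2-fold with every mutant array above control.

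COX7C, a small subunit named as a general form, was the single general form that fell. It gave 14.1, 18.1 and 4.0 in the labelled comr arrays, 37.2, 37.4 and 30.2 in can, and 172.7, 181.1 and 172.5 in control. All labelled comr arrays lay under the floor, so that it was at least 8.64-fold lower there, and in can it fell by 1.91 on the log2 scale (SE 0.17, limma adjusted p = 7.62e-07). Its L paralog COX7CL had no probe set of its own, and probe sequences were not analysed here, so which transcripts this probe set reads was not tested.

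Complex I general forms had the lowest median change of the complexes in both mutants as deposited. Of the 26, 3 rose in the labelled comr arrays (11.5%, under the 28.9% of all tested probe sets) and 2 in can (7.69%, under the 20.7%). Their median was 0.38 in labelled comr and 0.56 in can, and it was -0.63 in labelled comr and -0.67 in can with ribosomal protein centring. The median in the labelled comr arrays lay 0.028 above that of all probe sets. It lay below it with the lowest 50% of probe sets left out, at 0.38 against 0.56. ND-51, the general form of ND-51L1 and ND-51L2, gave 247.4, 254.3 and 260.2 in the labelled comr arrays, 193.7, 221.8 and 209.6 in can, and 66.2, 92.0 and 108.1 in control. It rose by 1.39 (SE 0.13) in labelled comr and 1.12 (SE 0.13) in can, the change in can being 0.95 and short of 2-fold without control replicate 1. ND-20, the general form of ND-20L, gave 382.0, 375.1 and 377.3 in the labelled comr arrays, 518.9, 515.7 and 493.9 in can, and 209.9, 198.3 and 147.1 in control. It rose by 1.4 in can and had 0.98 in the labelled comr arrays, while the accessory subunit genes ND-19 and ND-B18 rose in labelled comr, ND-19 by 1.17 against 0.70 in can and ND-B18 by 1.12 against 0.75 in can. Over the 26 the changes spanned -0.71 to 1.39 in the labelled comr arrays and -0.48 to 1.4 in can. In labelled comr 22 changes were above 0 and 4 below, beside 5898 above and 3877 below among all 9775 tested probe sets. In can 23 were above 0 and 3 below, beside 6129 and 3646. Lower than control on every mutant array were ND-13A, with -0.71 in labelled comr and -0.47 in can, and ND-15, with -0.39 in labelled comr and -0.48 in can, both short of 2-fold. ND-B14.5A, the general form of ND-B14.5AL, gave 500.9, 505.6 and 545.4 in the labelled comr arrays, 788.4, 817.6 and 771.6 in can, and 418.6, 409.5 and 446.6 in control, with changes of 0.27 in labelled comr and 0.88 in can.

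Among the general forms of complexes II and III, SdhC, a membrane anchor, gave 340.5, 399.2 and 364.9 in the labelled comr arrays, 281.8, 280.6 and 257.3 in can, and 156.9, 137.8 and 114.7 in control. It rose by 1.34 in the labelled comr arrays and had 0.93 in can. SdhB, the iron-sulfur subunit, had changes of 0.96 in labelled comr and 0.71 in can. SdhD, the other anchor, had -0.17 in labelled comr and -0.32 in can, below control on every mutant array. UQCR-14 gave 235.6, 264.8 and 241.7 in the labelled comr arrays, 356.1, 290.8 and 228.3 in can, and 108.0, 122.2 and 135.2 in control, and rose by 1.14 in can, or just short of 2-fold without can replicate 1, against 0.94 in the labelled comr arrays. UQCR-6.4 had 0.93 in labelled comr and 0.82 in can, and UQCR-Q had -0.22 in labelled comr and -0.11 in can. With ribosomal protein centring the median was -0.049 in labelled comr and -0.51 in can for complex II, and -0.079 in labelled comr and -0.40 in can for complex III. Sdhaf3, which helps mature the iron-sulfur subunit of succinate dehydrogenase, gave 288.8, 285.2 and 291.8 in the labelled comr arrays, 180.1, 195.7 and 153.0 in can, and 116.1, 97.8 and 106.5 in control, and rose by 1.31 (SE 0.099) in the labelled comr arrays, against 0.64 in can. The change of Sdhaf3 in labelled comr was 0.30 and not called with ribosomal protein centring.

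Each L paralog was next set against its own general form on the same array, where any scaling of a whole array cancels apart from the effect of the offset. The general forms of COX6AL2 and ATPsynepsilonL are levy and sun. ND-24L, SdhAL and ATPsynGL had no general form with a probe set of its own, which left 14 pairs. The log2 ratio of L paralog to general form was lower on every mutant array than on every control array in 12 of the 14 pairs for the labelled comr arrays and in 12 for can, with fitted median changes of -4.28 in labelled comr and -2.60 in can. The L paralog lay at or under the floor on all arrays in 6 of these pairs in labelled comr and in 1, COX6AL2 with levy, in can, so that only a bound holds for them, and SdhCL did so on 2 of the 3 can arrays. As deposited, the L paralog lay below control and the general form above it in all 12 pairs of each mutant. With ribosomal protein centring the median change over all 50 general forms, paired or not, was below 0. Paired forms varied under it, and COX5B had 0.68 in labelled comr and -0.085 in can. The ratio of COX5BL to COX5B was at least 179.5-fold lower in labelled comr and changed by -3.48 in can, and that of ATPsynCF6L to ATPsynCF6 was at least 104.5-fold lower in labelled comr and changed by -2.45 in can. The ratio of COX6AL2 to levy was at least 39.3-fold lower in labelled comr and at least 49.3-fold lower in can. The ratio of ATPsynepsilonL to sun was higher on every mutant array, by 0.96 in labelled comr and 0.92 in can, and that of ATPsynbetaL to ATPsynbeta overlapped with control, with changes of 0.35 in labelled comr and 0.060 in can. Between the mutants the ratio was lower on every labelled comr array than on every can array in 8 pairs, higher in 3 (those of ND-20L, SdhBL and COX4L) and overlapping in 3. Of the 8, 3 (those of ND-51L1, ND-B14.5AL and UQCR-14L) had the L paralog above the floor on all arrays of both mutants, and for SdhCL 2 of the 3 can arrays were under it too. With 3 arrays against 3 a two-sided exact permutation test cannot go below p = 0.1, which every non-overlapping pair reached, and after Benjamini-Hochberg adjustment over the 42 tests the smallest value was 0.114. How often ratios of other probe sets separate the groups was not computed, so how unusual these counts of pairs are was not tested.

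**Figure D4:**
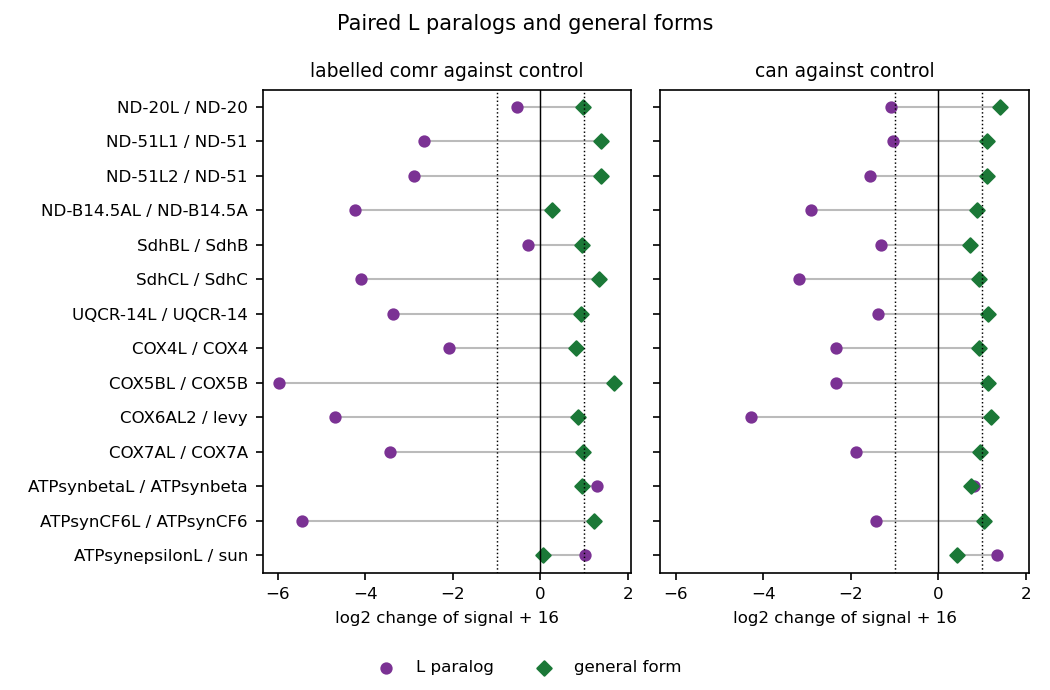
Change of log2(signal + 16) against control for the L paralog (circle) and the general form (diamond) of 14 pairs, in the labelled comr arrays (left) and in can (right); dotted lines mark 2-fold. In 12 pairs the circle lies below 0 and the diamond above it in both mutants, while the pairs of ATPsynbetaL and ATPsynepsilonL lie above 0. With ribosomal protein centring the median of all 50 general forms, paired or not, is below 0.

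How far the directions rest on the scaling of the arrays was read from 5 scalings. The number of L paralogs called lower ran from 12 to 14 in the labelled comr arrays and from 12 to 15 in can, and their median stayed at or below -2.52 in labelled comr and -1.26 in can. For the general forms the number called higher ran from 0 to 25 in the labelled comr arrays, while 5.81% to 41.1% of all probe sets were called higher, and from 0 to 19 in can, while 1.26% to 24.7% were, with medians from -0.42 to 0.96 in labelled comr and from -0.48 to 0.86 in can. The median over all probe sets moved with the scaling too, to -0.66 in labelled comr and -0.94 in can with ribosomal protein centring and to 0.71 in labelled comr and 0.40 in can with spiked-control centring. As deposited the general forms' median lay above that of all probe sets and the L paralogs' median below it. Centring moves all probe sets of a comparison alike and so keeps those gaps by construction. Quantile normalisation, which could change them, gave 0.65 for the general forms and -2.86 for the L paralogs in labelled comr, against 0.30 over all probe sets, and 0.77 and -1.26 in can, against 0.14. The filter changed them too. With the lowest 50% left out, the general forms had 0.59 in labelled comr, against 0.56 over all probe sets, and 0.75 in can, against 0.43.

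**Figure D5:**
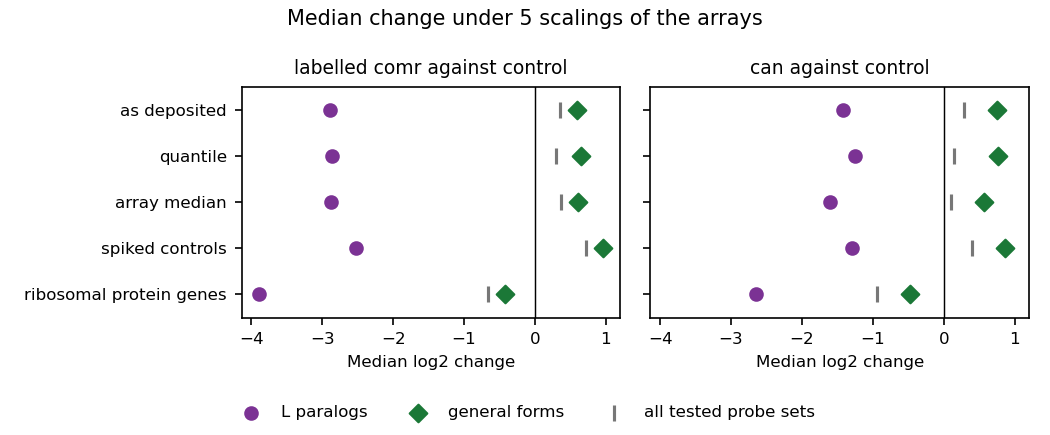
Median log2 change against control of the 17 L paralogs (circles), the 50 general forms (diamonds) and all tested probe sets (bars) under 5 scalings of the arrays, for the labelled comr arrays (left) and can (right). The circles stay below 0 throughout, while the diamonds cross from above 0 to -0.42 in labelled comr and -0.48 in can when the arrays are centred on ribosomal protein genes.

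By position in the gene table, 1 of the 17 L paralogs, SdhBL, lies on the X chromosome, against 10 of the 50 general forms. Among the 16 distinct general forms of the L paralogs, 5 lie on the X. An L paralog and its general form shared a chromosome arm in 4 of 17 pairs. COX5BL and COX5B, on 2L, have 1 protein-coding gene between them, COX7AL and COX7A, on 3R, have 2, and SdhCL and SdhC, also on 3R, have 15.

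Other mitochondrial genes were counted from lists of the same pathway. Of 12 carriers and subunits with other names, 2 fell in the labelled comr arrays (16.7%, as among all probe sets), and 1 fell and 1 rose in can (8.33% each, below the 13.1% and 20.7% of all probe sets). Porin2, a testis paralog of the outer membrane channel porin, gave 19.7, 18.8 and 19.4 in the labelled comr arrays, 533.7, 604.7 and 607.4 in can, and 2104.4, 2299.8 and 2148.3 in control. It was at least 107.5-fold lower in the labelled comr arrays and fell by 1.88 on the log2 scale in can. Its counterpart porin had changes of 0.20 in labelled comr and 0.26 in can, which were not called. Ant2, an ADP/ATP carrier, fell by 1.15 on the log2 scale in the labelled comr arrays and had -0.73 in can, while its relative sesB had 0.64 in labelled comr and 0.45 in can. The fall of Ant2 was short of 2-fold with quantile normalisation (-0.94) and with spiked-control centring (-0.78). The gene levy rose by 1.19 in can and had 0.87 in the labelled comr arrays, with -0.036 in can under ribosomal protein centring. Cyt-c1L, named as a paralog of cytochrome c1, had changes of 0.51 in labelled comr and -0.072 in can, and Cyt-c1 of 0.57 in labelled comr and 0.50 in can, none of them called.

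Of 13 citric acid cycle and pyruvate dehydrogenase genes, 5 fell (38.5%, beside 16.7% of all probe sets) and 2 rose (15.4%, beside 28.9%) in the labelled comr arrays. In can 5 fell (38.5%, beside 13.1%) and 1 rose (7.69%, beside 20.7%). Fum3, a fumarase gene, gave 3.0, 1.0 and 4.5 in the labelled comr arrays, 289.0, 230.3 and 282.2 in can, and 1056.3, 1037.5 and 1093.6 in control. It was at least 52.3-fold lower in the labelled comr arrays, where Scsalpha2, a succinyl-CoA synthetase subunit, was at least 53.4-fold lower and mAcon2, an aconitase, at least 42.6-fold lower. In can the change was -1.94 for Fum3, -2.30 for Scsalpha2 and -2.55 for mAcon2. Fum2 was at least 6.43-fold lower in the labelled comr arrays and had -0.82 in can, while Idh3b, of isocitrate dehydrogenase, fell in both with -1.66 in labelled comr and -1.23 in can. In can muc also fell, with a change of -1.08, or -0.99 and short of 2-fold without can replicate 2. Idh3g and Ogdh rose in the labelled comr arrays, Idh3g by 1.24 and Ogdh by 1.02, the change of Ogdh being 0.91 without labelled comr replicate 1 and 0.93 without labelled comr replicate 2. With ribosomal protein centring Idh3g had 0.23 and Ogdh 0.012 in labelled comr, neither called. The aconitase gene mAcon1 had 0.98 in labelled comr and 1.03 in can, and Scsalpha1, named as another succinyl-CoA synthetase subunit gene, had 0.19 in labelled comr and 0.31 in can. The rise of mAcon1 in can was 0.94 and short of 2-fold without control replicate 1, and with ribosomal protein centring it turned to -0.19, not called.

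Assembly factors rose in 3 of 5 cases in the labelled comr arrays (Sdhaf3, Surf1 and Scox) and in 1 of 5 in can (Cox10), which is 60% in labelled comr, beside 28.9% of all probe sets, and 20% in can, beside 20.7%. Surf1, needed to build complex IV, gave 136.5, 144.3 and 141.7 in the labelled comr arrays, 97.4, 100.8 and 90.6 in can, and 55.1, 54.5 and 54.6 in control. With ribosomal protein centring the changes in the labelled comr arrays were 0.30 for Sdhaf3, 0.14 for Surf1 and 0.040 for Scox, and that of Cox10 in can was 0.21, none of them called. Of 5 genes for mitochondrial DNA upkeep and transcription, 1 rose in the labelled comr arrays (20%, beside 28.9% of all probe sets) and 2 in can (40%, beside 20.7%). The transcription factor gene mtTFB2 gave 82.0, 88.4 and 83.1 in the labelled comr arrays, 41.4, 41.4 and 42.2 in can, and 5.4, 5.2 and 6.8 in control, which was at least 4.16-fold higher in labelled comr and at least 2.05-fold higher in can. TFAM, which packages mitochondrial DNA, rose by 1.58 in can and had 0.83 in the labelled comr arrays, and the changes of mtTFB2 and TFAM in can were 0.17 and 0.35 with ribosomal protein centring.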

How the data were processed

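Testis RNA of 3 genotypes was hybridised to 9 Affymetrix arrays. The deposited values are intensities on a linear scale, for which the submitters' processing notes list GCOS 1.4. Which signal algorithm it ran is not given here. In the deposited files each array's trimmed mean (2% left out at each end) was 99.9, so all arrays had been scaled alike. Of 14010 probe sets, 44 controls and the lowest 30% by mean signal (under 15.1) were left out, which left 9775, all 68 members among them. limma 3.58.1 (R 4.3.3) was fitted to log2(signal + 16) of all 3 groups with an intensity trend, and p-values were Benjamini-Hochberg adjusted over all tested probe sets. The fit was tested on simulated data.

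Groups were taken from the labels. Members and gene lists were chosen with earlier results of these data known. Named were all L paralogs with their general forms, up to 3 called general forms per complex, comparison and direction, up to 3 called genes per other list, and aly, can and comr; the other genes named were chosen after their values were seen. Gene symbols came from the platform annotation, and chromosome arms and gene order from RefSeq (Release 6 plus ISO1 MT). Alternatives covered offset, filter, scaling, fold, probe set, samples in the fit, the replicate block and leaving out each array. The number of arrays limits the precision. Promoter and protein sequences were not analysed here.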

Additional observations from a re-analysis of the deposited data

Results flagged for a closer look

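In 2 general forms the mutants lay on opposite sides of control on every array as deposited, but below control in both mutants with ribosomal protein centring. The share of all tested probe sets with such a pattern was not computed, so how unusual these 2 are was not tested. ND-B8, an accessory subunit of complex I, gave 156.3, 155.0 and 134.4 in the labelled comr arrays, 235.9, 259.3 and 260.8 in can, and 198.8, 198.4 and 171.1 in control. Its changes against control were -0.32 in labelled comr and 0.39 in can, and the labelled comr arrays differed from can by -0.70 (limma adjusted p = 5.00e-05, lower on 3 of 3 arrays). ATPsynB, a peripheral stalk subunit of the ATP synthase, gave 1014.7, 1087.9 and 1086.6 in the labelled comr arrays, 715.1, 691.7 and 666.5 in can, and 795.9, 768.3 and 921.6 in control. Its changes against control were 0.36 in labelled comr and -0.25 in can, and the labelled comr arrays differed from can by 0.61 (limma adjusted p = 3.28e-05, higher on 3 of 3 arrays). Both differences between the mutants were short of 2-fold. With ribosomal protein centring ND-B8 had -1.33 in labelled comr and -0.84 in can, and ATPsynB -0.65 in labelled comr and -1.48 in can.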

How the results depend on the processing

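Over 24 alternatives for 137 gene results, 2661 values kept direction and call, 126 lost the call, 77 gained it and 10 turned. In labelled comr against control the general forms called higher numbered 0 with ribosomal protein centring, 25 with spiked-control centring, 39 with no minimum fold and 0 at 4-fold. In can against control they numbered 6 with median centring, 0 with ribosomal protein centring, 19 with spiked-control centring, 38 with no minimum fold and 0 at 4-fold, and 6 L paralogs were lower at 4-fold. In labelled comr against can, 4 L paralogs were lower with offset 64 and 2 at 4-fold, and the general forms called higher numbered 0 with offset 64, 9 with no minimum fold, 0 at 4-fold and 0 without can replicate 2. The dimmer ATPsynC probe set turned that gene to -0.38 in labelled comr and -0.41 in can. Ribosomal protein centring turned, in can against control, ATPsynGL to -1.16, ND-51 to -0.11, UQCR-14 to -0.087, COX5B to -0.085, ATPsynCF6 to -0.20, levy to -0.036, comr to -0.070 and can to -1.05. It shifts all probe sets of a comparison alike. In can against control ND-20L and ND-51L1 lost their calls with offset 64 (-0.86 and -0.81) and spiked-control centring (-0.97 and -0.92), and ND-24L with quantile normalisation (-0.999). Leaving out each array in turn gave 12 to 12, 13 to 14 and 9 to 10 L paralogs lower and 14 to 15, 10 to 14 and 0 to 1 general forms higher, for labelled comr against control, for can against control and for labelled comr against can. Replicate numbers did not pair the arrays: correlations of same-numbered arrays were 0.19, -0.029 and 0.19, then 0.066, -0.037 and -0.14, then 0.15, 0.12 and -0.088 in the same order. With the replicate block the counts were 12, 14 and 9 L paralogs lower and 14, 12 and 1 general forms higher, as without it. Signals near the floor of 20.3 carry only bounds.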
